A study of Homo sapiens with 38 samples.

Results

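E8 was compared with N2B27 at day 6 of the exit from naive pluripotency in Shef6, a line of human embryonic stem cells. The comparison rests on 4 of the 38 libraries of the series, chosen by their titles: 2 of cells in E8 at day 6 and 2 of cells in N2B27 at day 6. All 4 came from naive Shef6 cells adapted to a serum coating in PXGL medium, which holds inhibitors of MEK, tankyrase and protein kinase C together with LIF. The cells were replated on Geltrex, a basement membrane matrix, and carried the same label of experiment, Ex1. Both groups thus share the line, the coating history, the matrix and the time, and differ by the medium. N2B27 is a basal mixture with the N2 and B27 supplements and was given here without added growth factor. E8 is a defined medium for primed cells that supplies FGF and a ligand of the TGF-β family, and its basal medium and supplements are not those of N2B27, so that the growth factors and the rest of the medium cannot be told apart in this comparison. Shef6 is 1 line, and the 2 libraries of a group are labelled as replicates without a statement that they came from separate cultures. The study's descriptions of this dataset call its replicates technical in some places and biological in another, so p-values measure the spread between such libraries, which may be technical.

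Naive human pluripotent cells resemble the epiblast before implantation. When the naive inhibitors are withdrawn they pass through a formative period, often called capacitation, after which they can respond to lineage cues. FGF acting through ERK and Nodal or Activin acting through SMAD2 and SMAD3 maintain the primed state that follows. The same Nodal signal, together with WNT and BMP, also starts the primitive streak, the site at which mesoderm and endoderm arise.

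QuantSeq libraries were sequenced, a method that reads transcripts at their 3′ ends, and gene counts were deposited. The 4 libraries held 4180778 to 4751240 counts and 23769 to 24657 detected genes, and mitochondrial genes took 2.36% to 2.79% of the counts. The unit of level is CPM, the count divided by the scaled library size in units of 1e+06, and 1 library allows a gene with 0 counts a level of up to 0.604 to 0.725 CPM (3 counts, counting error only). Each library lay nearest to its replicate partner. The pluripotency genes that define the cell type were present in all 4 libraries: POU5F1, which encodes OCT4, stood at 485 and 524 CPM in E8 and 356 and 378 in N2B27, and NANOG at 956 and 925 in E8 and 1007 and 969 in N2B27.

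E8 and N2B27 differed in 881 of the 16674 genes tested at day 6, a share of 5.28%. A gene was called when its adjusted p from the quasi-likelihood test of edgeR was under 0.05 and its log2 fold change beyond 1 in either direction, and all log2 fold changes are E8 over N2B27. Of these genes 386 (2.31%) were higher in E8 and 495 (2.97%) lower. The libraries of both media did not overlap in any of the 881 genes, but they also did not overlap in 61.63% of all genes tested. The median log2 fold change over all genes was 0.001. Among the called genes, 212 of those higher and 250 of those lower reached a mean of 10 CPM in at least 1 medium. The difference exceeded 4-fold, a fitted log2 fold change beyond 2, in 91 genes higher in E8 and 129 genes lower. The count of calls was sensitive to 1 library: without E8 replicate 2 it was 523. Among the lineage lists, 7 of 14 primitive streak and mesoderm genes and 4 of 13 endoderm and hypoblast genes were called, all lower in E8. Between the media edgeR and DESeq2 both called 0 of the 9 genes of the general pluripotency list, of which 4 had an unadjusted p under 0.05 (against 4830 of the 16674 genes tested, 29.0%), and their median log2 fold change was -0.03.

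**Figure D1:**
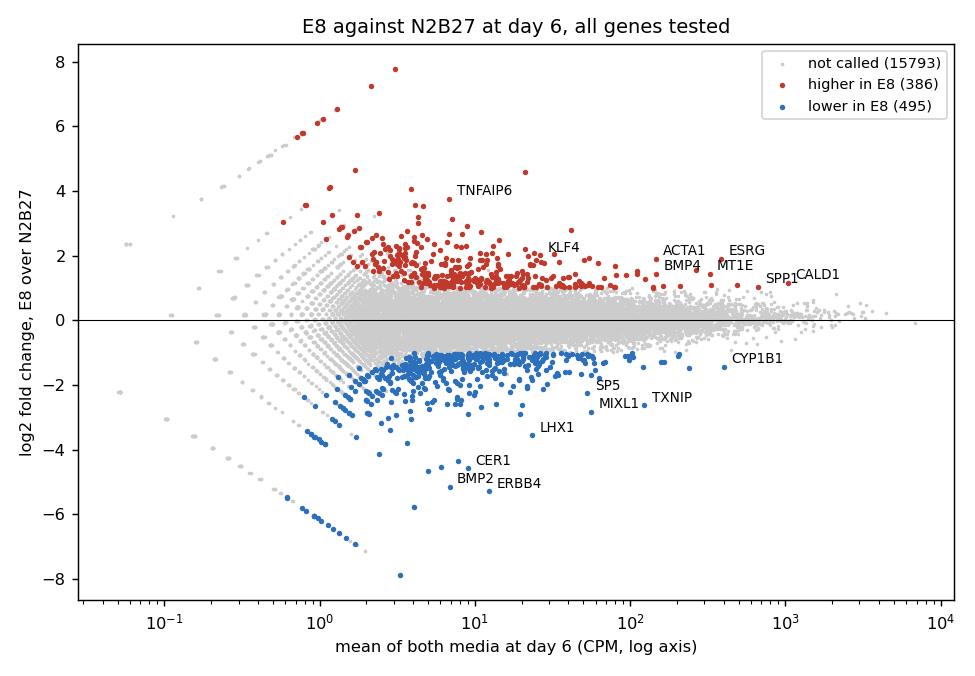
Each point is 1 of the 16674 genes tested, with the mean level of both media at day 6 in CPM on a log axis and the log2 fold change of E8 over N2B27 on the other axis. Red points are the 386 genes called higher in E8, blue points the 495 called lower, and grey points the genes not called. Rows of points at low CPM are genes with few counts.

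**Figure D2:**
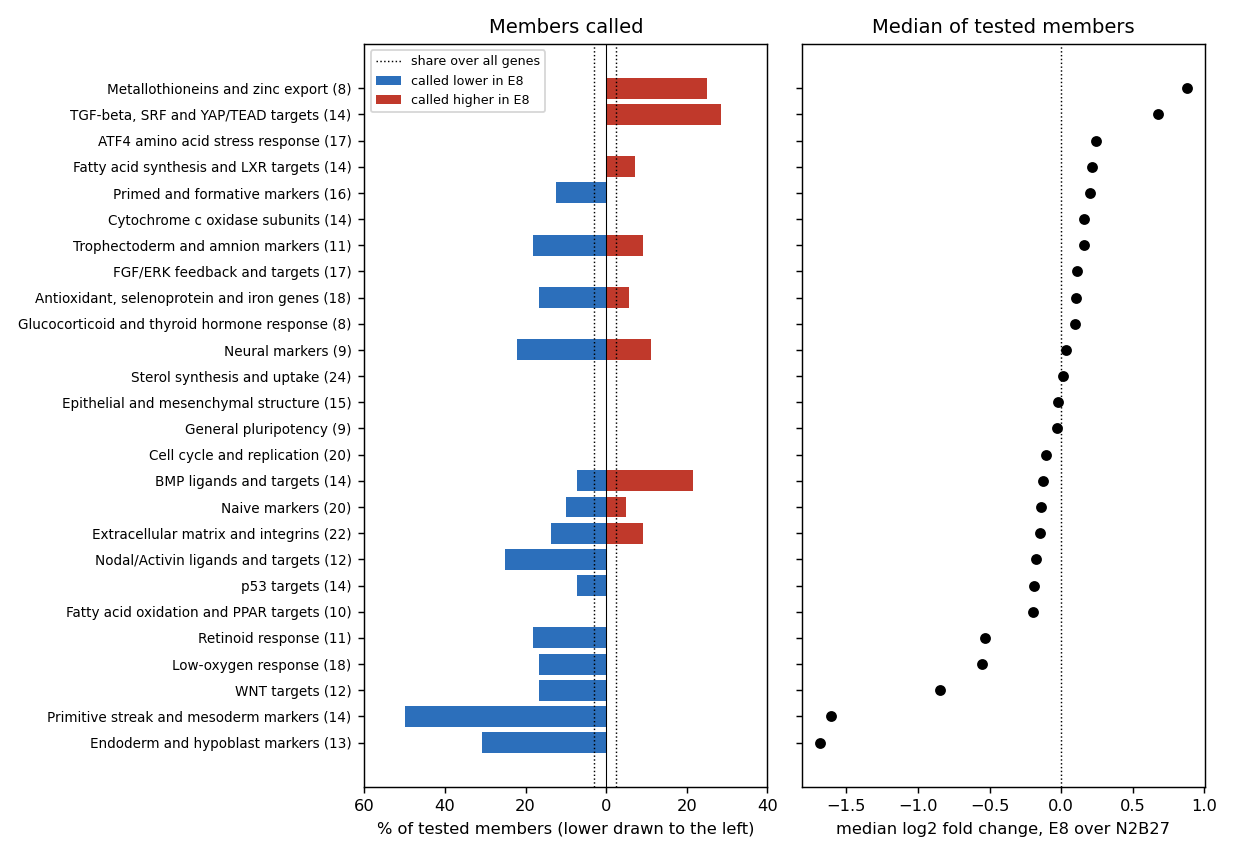
The left panel gives the percentage of the tested members of each of 26 gene lists that were called lower (blue, to the left) or higher (red, to the right) in E8 at day 6, with dotted lines at the shares over all genes, 2.97% and 2.31%. The right panel gives the median log2 fold change of each list, and the number of tested members stands in brackets beside its name. The right panel uses fitted values, and with floor genes at their bound the medians are -0.90 for the streak list, -0.79 for the WNT targets and -0.77 for the endoderm list.

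The primitive streak and mesoderm genes that differed were all lower in E8. Of the 17 genes listed 14 passed the filter on low counts, and 7 of these 14 were called, all lower: MIXL1, EOMES, LHX1, TBXT, APLNR, EVX1 and GSC. The median of the 14 was -1.60, or -0.90 when genes at the counting floor in E8 were given their bound. MIXL1 (chr1:226223618-226227060, forward strand), a homeobox factor of the early streak, stood at 14.7 and 12.98 CPM in the E8 libraries and at 91.9 and 105 in N2B27. It was 7.12-fold lower in E8 (log2 fold change -2.83 ± 0.21 SE, adjusted p = 6.25e-11). EOMES, a T-box factor required for definitive endoderm and early mesoderm, was at 5.07 and 6.15 CPM in E8 and at 30.4 and 38.3 in N2B27 (log2 fold change -2.61 ± 0.30 SE, adjusted p = 1.94e-07). LHX1, a LIM homeobox factor of the anterior streak and node, was at 3.86 and 3.42 CPM in E8 and at 41.3 and 45.3 in N2B27 (log2 fold change -3.56 ± 0.37 SE, adjusted p = 2.83e-08). In each of these genes the higher E8 library lay far under the lower N2B27 library.

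TBXT, the streak factor brachyury, fell less: its levels were 29.7 and 27.1 CPM in E8 and 67.5 and 60.9 in N2B27, a 2.26-fold difference (adjusted p = 1.65e-04). APLNR, the apelin receptor of early mesoderm, was at 0.483 and 0.228 CPM in E8, at or under the counting floor of 3 counts, and N2B27 had 8.96 and 10.3, which puts E8 at least 13.7-fold lower. EVX1, a posterior streak factor, was at the floor in E8 too (0.483 and 0.683 CPM against 3.54 and 3.22, at least 4.81-fold lower). GSC, a factor of the organizer, was at 2.42 and 2.05 CPM in E8 and 4.38 and 8.46 in N2B27, with an adjusted p of 0.0464. Its call rested on single libraries, since its log2 fold change of -1.52 became -1.64 without E8 replicate 1, -1.403 without E8 replicate 2 and -0.96 without N2B27 replicate 2, none of them past the threshold. KDR, SNAI1, SNAI2, TBX3, FGF8, FOXF1 and MESP2 were tested and not called. MESP1, MSGN1 and TBX6 had too few counts to be tested. Summed over the list, the level was 119 and 128 CPM in E8 against 346 and 359 CPM in N2B27. In bulk RNA, fewer cells that express such genes and less RNA of them per cell cannot be told apart.

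**Figure D3:**
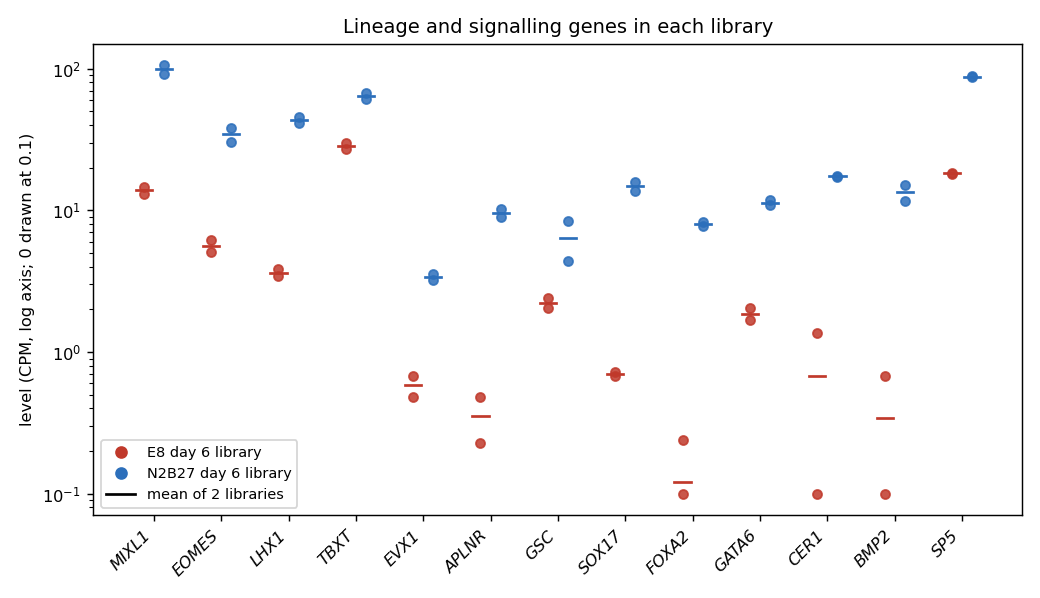
Points are the CPM values (log axis) of each E8 (red) and N2B27 (blue) library at day 6 for 13 lineage and signalling genes, and short lines are the means of 2 libraries. Values of 0 are drawn at 0.1. For all 13 genes both E8 points lie under both N2B27 points.

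Of 13 tested members of the endoderm and hypoblast list 4 were called, all lower in E8: SOX17, FOXA2, GATA6 and FOXQ1. The study measured TBXT, SOX17, FOXA2 and GATA6 by RT-qPCR in differentiating cell aggregates of another line, HPD06. That assay did not compare E8 with N2B27. The median was -1.68, or -0.77 when genes at the floor in E8 were given their bound and those at the floor in both media were left out. SOX17, which specifies definitive endoderm and germ cells, was at 0.725 and 0.683 CPM in E8, at the floor, and at 13.8 and 15.9 in N2B27, at least 21.1-fold lower (adjusted p = 1.22e-08). FOXA2, a forkhead factor of endoderm and the node, was at 0.241 and 0 CPM in E8 and 7.71 and 8.26 in N2B27, at least 11.3-fold lower (adjusted p = 1.04e-06). GATA6, a factor of hypoblast and mesendoderm, was at 1.69 and 2.05 CPM in E8 and 10.8 and 11.9 in N2B27 (log2 fold change -2.58 ± 0.34 SE, adjusted p = 2.78e-06). Among the members not called, PDGFRA was at 2.898 and 3.87 CPM in E8 and 4.17 and 3.63 in N2B27. GATA4 was at 5.55 and 2.73 in E8 and 5.21 and 7.05 in N2B27. Other members not called had higher levels, APOE with 55.79 and 55.77 CPM in E8 and 50.85 and 66.29 in N2B27. CXCR4 had 23.67 and 20.49 in E8 and 28.55 and 37.08 in N2B27. FOXQ1 was at 0.966 and 0.911 CPM in E8 and 2.92 and 3.22 in N2B27, and its log2 fold change of -1.68 (adjusted p = 0.0310) lost the call whichever of the 4 libraries was left out, at -1.72 and -1.64 without E8 replicates 1 and 2 and at -1.75 and -1.61 without N2B27 replicates 1 and 2.

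Within the Nodal pathway the ligand and its co-receptor were not called, while some genes downstream were lower in E8. The ligand NODAL stood at 151 and 158 CPM in E8 and 140.5 and 147 in N2B27, and its co-receptor CRIPTO, listed as TDGF1, at 247 and 260.0 in E8 and 217 and 189 in N2B27. Neither was called (adjusted p = 0.724 and 0.0846). Of the 12 genes tested in the list 3 were called, all lower in E8, and the median was -0.18. CER1 (chr9:14719724-14722733, reverse strand), a secreted antagonist of Nodal, BMP and WNT made by anterior mesendoderm, had 0 and 1.37 CPM in E8 and 17.3 and 17.5 in N2B27 (log2 fold change -4.58 ± 0.48 SE, adjusted p = 4.23e-07). Its fold moved with single E8 libraries, to a log2 fold change of -3.65 without E8 replicate 1 and -9.28 without E8 replicate 2, the latter a fitted value against 0 counts and no bound. LEFTY2, a feedback antagonist of Nodal, was at 14.2 and 15.02 CPM in E8 and 33.97 and 32.4 in N2B27, a 2.26-fold difference (adjusted p = 0.00327). Its close paralog LEFTY1 was at 94.4 and 102 CPM in E8 and 124 and 113 in N2B27 and was not called (log2 fold change -0.27), and reads shared by both genes were not separated.

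Of the 3 BMP ligands in the list, BMP2 was called lower in E8, BMP4 was called higher and BMP7 was not called. BMP2 (chr20:6767686-6780246, forward strand) was at 0 and 0.683 CPM in E8, at the floor, whereas N2B27 had 11.7 and 15.1, which puts E8 at least 19.03-fold lower (adjusted p = 2.37e-09). BMP4 (chr14:53949736-53958761, reverse strand) was at 216 and 213 CPM in E8 and 77.7 and 81.00 in N2B27, 2.702-fold higher in E8 (log2 fold change 1.43 ± 0.13 SE, adjusted p = 2.89e-09). BMP7 was at 25.4 and 29.1 CPM in E8 and 26.7 and 33.9 in N2B27, levels that overlapped. The targets had no common direction. ID4, a BMP target of the ID family, was 2.58-fold higher in E8, at 17.6 and 21.6 CPM against 8.75 and 6.45 (adjusted p = 0.00126). ID1 was at 102 and 99.7 CPM in E8 and 91.3 and 80.6 in N2B27 and was not called, and ID2 at 22.9 and 27.3 CPM in E8 and 41.7 and 39.1 in N2B27 was lower in both E8 libraries by a log2 fold change of only -0.68. GREM1, a secreted BMP antagonist, was at 31.4 and 35.1 CPM in E8 and 13.1 and 19.1 in N2B27 (log2 fold change 1.04, adjusted p = 2.87e-04), a value that fell under the fold threshold without E8 replicate 2 (0.96) and without N2B27 replicate 1 (0.795). Of 14 genes 3 were higher and 1 lower, with a median of -0.13.

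Of 12 tested WNT targets 2 were called, SP5 and RNF43, both lower in E8, with a list median of -0.84, or -0.79 when floors were given their bound. SP5, a direct target of WNT and β-catenin in the streak, was at 18.1 and 18.4 CPM in E8 and 88.8 and 87.05 in N2B27, 4.8-fold lower (log2 fold change -2.26 ± 0.24 SE, adjusted p = 6.33e-08). AXIN2, the general feedback target, was at 19.6 and 22.5 CPM in E8 and 45.01 and 32.8 in N2B27, and the ligand WNT3 at 11.1 and 10.9 in E8 and 22.1 and 16.5 in N2B27. Both had an adjusted p under 0.05 but a log2 fold change short of 1 (-0.88 and -0.81). Both passed it without N2B27 replicate 2, at -1.09 for AXIN2 and -1.002 for WNT3. RNF43, a ligase that removes WNT receptors, was at 2.17 and 2.28 CPM in E8 and 4.38 and 5.64 in N2B27, and its adjusted p of 0.0369 did not hold without any 1 of the libraries (log2 fold changes -1.13, -1.196, -1.33 and -0.97 without E8 replicates 1 and 2 and N2B27 replicates 1 and 2).

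Among 11 tested genes of the retinoid response 2 were called, both lower in E8, and the median was -0.53. CYP26A1, the enzyme that degrades retinoic acid, was at 9.901 and 14.3 CPM in E8 and 36.3 and 27.8 in N2B27 (log2 fold change -1.395 ± 0.24 SE, adjusted p = 1.18e-04). CYP26A1 is also known from the posterior primitive streak. RARB, DHRS3, STRA6 and RDH10 were not called.

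The naive and the primed lists each held genes of both directions. They include markers that the study itself followed in this time course, so their choice is not independent of it. By RT-qPCR in N2B27 with or without FGF2, Activin A and a tankyrase inhibitor, the study found the kinetics of KLF4 and ZIC2 equivalent. E8 was not part of that assay. Among 20 naive markers tested 1 was higher and 2 were lower in E8, with a median of -0.14, or -0.24 when floors were given their bound. KLF4 (chr9:107484852-107490482, reverse strand), a Krüppel-like factor of the naive network, was at 43.5 and 40.98 CPM in E8 and 8.75 and 12.1 in N2B27, 4.03-fold higher in E8 (log2 fold change 2.01 ± 0.20 SE, adjusted p = 1.71e-08). The 6 naive libraries pool serum coating with Geltrex and include libraries of another experiment, Ex2. In them the mean of KLF4 was 112 CPM, with a range of 59.4 to 174.9, so that KLF4 at day 6 lay under that range in both media. KLF17, another naive factor, was at 38.4 and 45.8 CPM in E8 and 28.8 and 22.6 in N2B27 and was not called. SUSD2, a naive surface marker, was at 29.5 and 29.6 CPM in E8 and 64.2 and 75.6 in N2B27 (log2 fold change -1.24 ± 0.18 SE, adjusted p = 7.65e-06). KHDC1L was at 144 and 125 CPM in E8 and 252 and 304 in N2B27, and its log2 fold change of -1.05 fell short of the threshold without E8 replicate 2 (-0.95) and without N2B27 replicate 2 (-0.91). NLRP7, a maternal-effect gene that is abundant in naive cells, was at 759 and 692 CPM in E8 and 1140.0 and 1138 in N2B27, a log2 fold change of -0.65 that did not reach the threshold.

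Among 16 primed and formative markers tested 2 were called, both lower in E8, while the median was 0.20. ZIC2, a zinc finger factor that rises during the exit, was at 65.2 and 53.04 CPM in E8 and 147 and 129 in N2B27 (log2 fold change -1.23 ± 0.14 SE, adjusted p = 2.79e-07). NTS, the neurotensin precursor, was at 27.8 and 28.9 CPM in E8 and 97.9 and 96.1 in N2B27 (log2 fold change -1.77 ± 0.17 SE, adjusted p = 5.42e-09). The DNA methyltransferase DNMT3B was at 967 and 954 CPM in E8 and 865 and 809 in N2B27, and SALL2 at 143 and 153 in E8 and 159.6 and 156 in N2B27, neither of them called. SOX2 was at 275 and 304 CPM in E8 and 210.3 and 222 in N2B27, with a log2 fold change of 0.42 under the threshold. Neural and trophectoderm or amnion markers were mixed, with 1 gene higher and 2 lower of 9 tested in the neural list (median 0.03) and likewise 1 and 2 of 11 in the trophectoderm and amnion list (median 0.16). NES, an intermediate filament gene of neural progenitors, was at 266 and 283 CPM in E8 and 167 and 133 in N2B27 (log2 fold change 0.87, adjusted p = 1.33e-05), and it passed the fold threshold without N2B27 replicate 1 (1.05). NEFM was called higher in E8 at 14.01 and 15.5 CPM against 3.96 and 3.83, ZIC1 lower at 1.93 and 1.82 against 8.13 and 6.45, and CDX2 and ISL1 had means under 5 CPM in both media. Both were called lower in E8, and both calls were lost with single libraries: CDX2 without E8 replicate 1 (-2.43), E8 replicate 2 (-3.27) or N2B27 replicate 1 (-1.92), and ISL1 without E8 replicate 2 (-0.98) or N2B27 replicates 1 and 2 (-1.76 and -1.67), while it was -3.16 without E8 replicate 1. IGFBP3, the third called member of the trophectoderm and amnion list, is described among the largest rises.

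In a list of 14 tested targets of TGF-β, of the serum response factor SRF and of YAP with TEAD, 4 were called, all higher, with a median of 0.68. THBS1, the matricellular protein thrombospondin, was at 36.2 and 47.1 CPM in E8 and 12.5 and 11.5 in N2B27 (log2 fold change 1.796 ± 0.21 SE, adjusted p = 2.34e-07). TAGLN, an actin-binding protein of contractile cells, was at 226 and 216 CPM in E8 and 95.9 and 115 in N2B27, and its log2 fold change of 1.07 became 0.95 without N2B27 replicate 1. MYL9, a myosin light chain, was at 38.2 and 40.5 CPM in E8 and 18.6 and 20.1 in N2B27, with 1.02 in the full fit, 0.98 without E8 replicate 2 and 0.96 without N2B27 replicate 1. TPM1 and CRIM1 stayed under the threshold at 0.92 and 0.93, though CRIM1 passed it without N2B27 replicate 1 (1.05). The YAP target ANKRD1 was at 6.28 and 5.46 CPM in E8 and 7.29 and 7.66 in N2B27 and was not called.

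Outside the list, 4 genes of the actin cytoskeleton were among the largest gains in CPM or were chosen after their values were seen. CALD1 (chr7:134744252-134970729, forward strand), which encodes caldesmon, a regulator of actomyosin, had the largest gain of all called genes, from 646 and 638 CPM in N2B27 to 1444 and 1412 in E8 (log2 fold change 1.15 ± 0.11 SE, adjusted p = 4.11e-09). ACTA1, skeletal α-actin, was at 234 and 228 CPM in E8 and 59.6 and 63.5 in N2B27 (log2 fold change 1.91 ± 0.17 SE, adjusted p = 2.11e-09). ACTC1, cardiac α-actin, was at 117 and 127 CPM in E8 and 36.9 and 38.9 in N2B27 (log2 fold change 1.69 ± 0.16 SE, adjusted p = 6.45e-09). TMSB4X, the actin-sequestering thymosin β4, was at 379 and 411 CPM in E8 and 149 and 117 in N2B27 (log2 fold change 1.57 ± 0.16 SE, adjusted p = 1.34e-08), although its processed pseudogenes can take part of its reads. Collagen genes did not share a direction. COL1A1 was at 69.1 and 58.96 CPM in E8 and 23.1 and 24.2 in N2B27 and COL6A1 at 28.3 and 26.6 in E8 and 11.04 and 8.87 in N2B27, both called higher, whereas COL1A2 was called lower at 62.1 and 69.4 against 148 and 140.4. COL5A1 and COL5A2 were called lower too, at log2 fold changes of -1.398 and -1.03. COL5A1 lost the call without E8 replicate 2 (-0.54) and N2B27 replicate 2 (-1.17), with DESeq2, with the Ex1 libraries only and with the 4 compared libraries only, and was -3.55 without E8 replicate 1. COL5A2 lost it without E8 replicate 2 (-0.84) and N2B27 replicate 1 (-0.98). Of 22 genes of the matrix and integrin list 2 were higher and 3 lower, and the median was -0.15.

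MT1E and MT1M were called higher in E8 among the metallothionein genes, and the other members lay on the same side with smaller differences. These small cysteine-rich proteins bind zinc and copper, and their genes answer to metals through the zinc-sensing factor MTF1. All 8 members of the list, 7 metallothioneins of chromosome 16 and the zinc exporter SLC30A1, had a log2 fold change above 0 and an adjusted p under 0.05 (against 7.67% of all genes tested), and 2 passed the fold threshold. The median was 0.88, and the summed level was 2919 and 2871 CPM in E8 against 1537 and 1552 CPM in N2B27. MT1E (chr16:56625475-56627112, forward strand) was at 469.7 and 481 CPM in E8 and 179.6 and 169.5 in N2B27, 2.72-fold higher (log2 fold change 1.45 ± 0.12 SE, adjusted p = 1.003e-09). MT1G, the most abundant member, was at 1071 and 1005 CPM in E8 and 566 and 565 in N2B27 (log2 fold change 0.88). MT2A was at 474 and 449 CPM in E8 and 241 and 263 in N2B27 (0.87), MT1X at 171 and 177 in E8 and 129 and 115 in N2B27 (0.51), and SLC30A1 at 66.9 and 71.7 in E8 and 42.3 and 41.9 in N2B27 (0.72). The E8 libraries were above the N2B27 libraries for each of these genes. MT1M was called at 1.02 and lost the call without E8 replicate 2 (0.86) and without N2B27 replicate 2 (0.94). The metallothionein genes are close paralogs, and reads that fit several of them were not separated here.

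The promoters of MT2A and MT1X are shown as examples from the members that the promoter table holds, although neither gene passed the fold threshold. MT1H, which the table also holds, was more abundant than MT1X and is not printed. Each stretch is the 250 bases before the RefSeq start site on GRCh38.p14, written 5′ to 3′ on the gene's strand, and capitals mark the metal response core, TGCACNC or TGCGCNC, on either strand. MT2A spans chr16:56608334-56608583, forward strand, and MT1X spans chr16:56682220-56682469, forward strand.
MT2A: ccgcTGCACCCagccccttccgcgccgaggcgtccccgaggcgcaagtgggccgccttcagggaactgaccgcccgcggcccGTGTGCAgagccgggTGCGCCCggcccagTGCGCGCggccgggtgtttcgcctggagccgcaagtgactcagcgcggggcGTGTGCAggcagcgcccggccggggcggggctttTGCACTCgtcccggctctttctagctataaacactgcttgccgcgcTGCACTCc
MT1X: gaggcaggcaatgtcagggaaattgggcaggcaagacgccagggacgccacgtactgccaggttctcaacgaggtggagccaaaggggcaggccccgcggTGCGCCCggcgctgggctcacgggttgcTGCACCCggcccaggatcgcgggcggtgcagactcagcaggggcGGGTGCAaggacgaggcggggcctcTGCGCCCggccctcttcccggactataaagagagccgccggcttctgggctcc
The core occurred 7 times in the window of MT2A and 4 times in that of MT1X. It was present in each of the 4 promoters of the list that the RefSeq table holds, those of MT2A, MT1X, MT1H and SLC30A1, and in 24.8% of the 35114 promoters of the table. The motif was chosen after the values of these genes were seen, and a match of letters is not a measured binding site. The list is made of known metal-responsive genes, so its share does not bear on the media.

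Among low-oxygen genes most differences lay on the lower side in E8, with exceptions. In this response the factor HIF1 shifts cells to glycolysis and remodels collagen. Of 18 tested members 11 had an adjusted p under 0.05 and a log2 fold change below 0, 1 had the same with a value above 0, and 3 passed the fold threshold, all lower. Over all genes tested, 1368 (8.20%) had an adjusted p under 0.05 with a value below 0 and 1279 (7.67%) with a value above 0. The median was -0.56, and the summed level was 3321 and 3180.0 CPM in E8 against 4992 and 4965 CPM in N2B27. P4HA1 (chr10:73007217-73096974, reverse strand), a collagen prolyl hydroxylase, was at 126 and 127 CPM in E8 and 364 and 344 in N2B27, 2.79-fold lower (log2 fold change -1.48 ± 0.095 SE, adjusted p = 1.07e-12). PDK1, the kinase that closes the entry of pyruvate into mitochondria, was at 20.3 and 17.3 CPM in E8 and 63.6 and 50.4 in N2B27 (log2 fold change -1.600 ± 0.20 SE, adjusted p = 9.64e-07). PFKFB4, a regulator of glycolysis, was at 4.83 and 4.55 CPM in E8 and 13.96 and 13.7 in N2B27 (log2 fold change -1.55 ± 0.34 SE, adjusted p = 0.00163).

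Smaller differences were found in the abundant members. BNIP3, a mitophagy receptor, was at 329.6 and 288 CPM in E8 and 585 and 581 in N2B27 (-0.92), its relative BNIP3L at 53.1 and 52.1 in E8 and 107 and 99.3 in N2B27 (-0.97), LDHA, lactate dehydrogenase, at 524 and 471 in E8 and 786 and 858 in N2B27 (-0.73), and PGK1, a glycolytic kinase, at 441 and 402 in E8 and 693 and 694 in N2B27 (-0.72). BNIP3 passed the fold threshold without E8 replicate 1 (-1.02) and BNIP3L without N2B27 replicate 2 (-1.02). Further classical members were not called either. VEGFA, the endothelial growth factor, was at 71.2 and 76.3 CPM in E8 and 68.1 and 51.2 in N2B27, and ADM, adrenomedullin, was at 77.5 and 88.5 in E8 and 47.3 and 44.7 in N2B27, on the higher side in E8 (log2 fold change 0.85, adjusted p = 7.34e-04). The glucose transporter SLC2A1 was at 336 and 339 CPM in E8 and 373 and 386 in N2B27 and was not called. FAM162A, a further gene known to respond to low oxygen, was named by its loss in CPM, from 285 and 274 in N2B27 to 133 and 127 in E8 (log2 fold change -1.11 ± 0.16 SE, adjusted p = 1.17e-05).

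The promoters of P4HA1 and LDHA are shown with the core of the hypoxia response element, ACGTG, in capitals on either strand. They cover the 250 bases before the RefSeq start on GRCh38.p14, P4HA1 at chr10:73096867-73097116, reverse strand and LDHA at chr11:18394313-18394562, forward strand.
P4HA1: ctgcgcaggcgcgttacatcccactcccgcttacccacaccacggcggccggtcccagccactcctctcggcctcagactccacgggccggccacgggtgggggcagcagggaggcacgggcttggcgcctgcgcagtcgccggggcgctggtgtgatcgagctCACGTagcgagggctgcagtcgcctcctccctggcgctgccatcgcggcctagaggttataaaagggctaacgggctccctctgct
LDHA: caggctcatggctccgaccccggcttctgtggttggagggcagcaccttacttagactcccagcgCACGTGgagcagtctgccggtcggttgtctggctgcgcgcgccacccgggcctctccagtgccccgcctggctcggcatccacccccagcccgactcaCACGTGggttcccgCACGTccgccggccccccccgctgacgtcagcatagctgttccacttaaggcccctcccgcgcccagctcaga
The core was found in 8 of the 15 promoters of the list that the table holds (53.3%) and in 18.5% of all 35114. The letters CACGTG hold it on both strands and were marked as 1 run. The windows of PDK1 and PFKFB4 did not contain these letters. This motif too was chosen after the values were seen. The list is made of known low-oxygen genes, among them CA9, which was not tested, so its share does not bear on the media. Each listed gene entered with a single promoter, whereas the share over all counts every promoter of the table.

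TXNIP and ARRDC4, paralogous arrestins that rise with intracellular glucose and limit its uptake, were lower in E8. TXNIP (chr1:145992435-145996579, reverse strand) was at 34.05 and 34.4 CPM in E8 and 234 and 191 in N2B27, 6.21-fold lower, the lowest adjusted p of the genes named here (log2 fold change -2.63 ± 0.15 SE, adjusted p = 1.81e-13). ARRDC4 was at 0.483 and 1.82 CPM in E8 and 5.42 and 3.63 in N2B27, and its log2 fold change of -1.93 lost the call without E8 replicate 1 (-1.297) and without N2B27 replicate 1 (-1.61), and was -3.15 without E8 replicate 2. In the list of 18 antioxidant, selenoprotein and iron genes that holds both, 1 member was higher, 3 were lower, and the median was 0.10. The higher one was SRXN1, sulfiredoxin, at 97.8 and 96.3 CPM in E8 and 39.6 and 37.9 in N2B27 (log2 fold change 1.32 ± 0.19 SE, adjusted p = 5.68e-06). The third lower one, the selenium carrier SELENOP, was at 2.42 and 3.64 CPM in E8 and 7.29 and 7.46 in N2B27 with an adjusted p of 0.0494, and its log2 fold change of -1.27 was no longer past the threshold without E8 replicate 1 (-1.01), E8 replicate 2 (-1.599), N2B27 replicate 1 (-1.29) or N2B27 replicate 2 (-1.25).

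Among targets of FGF and ERK signalling edgeR and DESeq2 called 0 of 17 tested members, 6 of which had an unadjusted p under 0.05, and the median log2 fold change was 0.11. DUSP6, an ERK phosphatase and feedback target, was at 57.7 and 61.5 CPM in E8 and 107 and 97.3 in N2B27 (log2 fold change -0.78, adjusted p = 7.11e-04), on the lower side. DUSP4, a related phosphatase, was at 68.1 and 71.2 CPM in E8 and 37.3 and 41.9 in N2B27 on the higher side (0.81, adjusted p = 4.47e-04). SPRY2 was at 53.9 and 63.1 CPM in E8 and 54.6 and 60.9 in N2B27. Feedback genes of 1 pathway thus differed in sign. Neither tool called a gene among 24 genes of sterol synthesis and uptake (median 0.01), 17 of the amino acid stress response under ATF4 (0.24), 20 of the cell cycle (-0.11), 14 subunits of cytochrome c oxidase (0.16), 10 of fatty acid oxidation (-0.20), 15 of epithelial and mesenchymal structure (-0.02) and 8 of the glucocorticoid and thyroid hormone response (0.10). The members with an unadjusted p under 0.05 numbered 7, 7, 11, 5, 2, 5 and 5 in that order, where 4830 of all 16674 genes tested had one. Genes at an adjusted p under 0.05 with a smaller fold were present in several of these lists, such as HMGCS1 (-0.55) in the sterol list and CENPF (-0.52) in the cell cycle list. Of 14 p53 targets edgeR called BTG2 alone, at 14.01 and 11.8 CPM in E8 and 26.5 and 28.8 in N2B27 (median -0.19), and it moved from -1.097 to -0.98 without E8 replicate 2. Of 14 genes of fatty acid synthesis edgeR called 1 and DESeq2 called 2, all higher. The former was ME1, malic enzyme, at 11.8 and 13.2 CPM in E8 and 6.67 and 5.44 in N2B27 (median 0.22), and it moved from 1.05 to 0.96 without E8 replicate 2 and 0.91 without N2B27 replicate 2.

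The largest falls in E8 outside the lists were led by ERBB4 (chr2:211375717-212538841, reverse strand), a receptor for neuregulins. It was at 0.725 and 0.455 CPM in E8, at the floor, and at 26.9 and 21.4 in N2B27, at least 34.3-fold lower (adjusted p = 2.37e-09). RHOBTB3, an ATPase of the Golgi, was at 3.62 and 5.46 CPM in E8 and 32.7 and 36.5 in N2B27 (log2 fold change -2.92 ± 0.26 SE, adjusted p = 1.97e-09). MERTK, a receptor kinase for the clearance of apoptotic cells, was at 2.66 and 1.59 CPM in E8 and 14.4 and 17.5 in N2B27 (log2 fold change -2.902 ± 0.29 SE, adjusted p = 1.71e-08). These genes were called lower in E8. BST2, the interferon-induced tetherin, was at 3.86 and 2.05 CPM in E8 and 17.5 and 20.6 in N2B27 (log2 fold change -2.69 ± 0.39 SE, adjusted p = 1.05e-05), and the zinc finger gene ZC3H6 at 4.11 and 3.64 in E8 and 22.1 and 24.6 in N2B27. The largest loss in CPM among called genes was that of CYP1B1, a cytochrome P450 induced by aryl hydrocarbons, from 582 and 587 CPM in N2B27 to 214 and 219 in E8 (log2 fold change -1.43 ± 0.11 SE, adjusted p = 8.75e-11). ABCG2, an efflux transporter, went from 237 and 212 to 99.98 and 84.9 CPM (-1.28), BRDT, a testis bromodomain protein, from 174 and 178 to 73.9 and 55.3 (-1.45), and EML2, a microtubule protein, from 218 and 254 to 95.6 and 96.5 (-1.296).

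The largest rises included secreted factors of modest level. TNFAIP6, a hyaluronan-binding protein induced by inflammatory signals, was at 13.3 and 12.3 CPM in E8 and 1.04 and 0.806 in N2B27, 13.5-fold higher (log2 fold change 3.75 ± 0.47 SE, adjusted p = 1.10e-06). CXCL1, a chemokine, was at 12.1 and 13.7 CPM in E8 and 1.04 and 1.81 in N2B27 (log2 fold change 3.14 ± 0.43 SE, adjusted p = 5.68e-06). IGFBP3, a carrier of insulin-like growth factors, was at 10.9 and 14.3 CPM in E8 and 2.92 and 2.22 in N2B27 (log2 fold change 2.29 ± 0.35 SE, adjusted p = 2.47e-05). The N2B27 libraries held few counts of these 3 genes. G0S2, an inhibitor of lipolysis, was at 13.04 and 15.7 CPM in E8 and 1.67 and 2.82 in N2B27, LRRN1, a leucine-rich membrane protein, at 23.2 and 25.7 in E8 and 3.96 and 4.63 in N2B27, INSM1, a neuroendocrine zinc finger factor, at 11.8 and 15.02 in E8 and 3.75 and 1.81 in N2B27, TCL1B at 14.97 and 14.3 in E8 and 1.88 and 4.03 in N2B27 and FAM9C at 23.9 and 19.8 in E8 and 2.92 and 5.84 in N2B27, with log2 fold changes of 2.66, 2.500, 2.27, 2.29 and 2.31. The last 3 moved by over 1.5 times with 1 library, INSM1 to 2.87 without N2B27 replicate 1, and TCL1B and FAM9C to 2.95 and 2.89 without N2B27 replicate 2. Among abundant genes SPP1, the matrix protein osteopontin, was at 888 and 893 CPM in E8 and 436 and 430.0 in N2B27 (log2 fold change 1.04), and RCC2, a regulator of chromosome condensation, at 649.6 and 682 in E8 and 338 and 283 in N2B27 (1.100, or 0.98 without N2B27 replicate 2). MTATP6P1, a nuclear copy of a mitochondrial gene, was at 463 and 446 CPM in E8 and 209 and 215 in N2B27, and its reads cannot be told from those of the mitochondrial original.

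The same media were compared at days 4 and 8 in libraries that the day 6 comparison does not use. At day 4, 227 genes (1.36%) were called higher in E8 and 188 (1.13%) lower, and at day 8 the counts were 556 (3.33%) and 660 (3.96%). Of the 386 genes higher at day 6, 101 were called higher at day 4 (26.2% of them and 44.5% of the day 4 list) and 167 at day 8 (43.3% and 30.0%). Of the 495 genes lower at day 6, 89 were called lower at day 4 (18.0% and 47.3%) and 234 at day 8 (47.3% and 35.5%). The sign at day 6 was kept at day 4 by 365 of the 386 genes and by 448 of the 495, and at day 8 by 376 and 468. The median log2 fold change of the genes higher at day 6 was 1.43 on that day, 0.79 at day 4 and 1.03 at day 8, and that of the genes lower was -1.48, -0.69 and -1.08. Genes were selected at day 6, which inflates their day 6 values. MIXL1 kept a near-equal difference on the 3 days (-2.83, -2.83 and -3.27), as did ESRG, a primate noncoding RNA of pluripotent cells (1.83, 1.904 and 2.14). The counts on these days moved by over 1.5 times with single libraries: day 4 gave 199 calls without E8 replicate 1, 276 without N2B27 replicate 1 and 227 without N2B27 replicate 2, and day 8 gave 778 without E8 replicate 1 and 761 without N2B27 replicate 1.

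**Figure D4:**
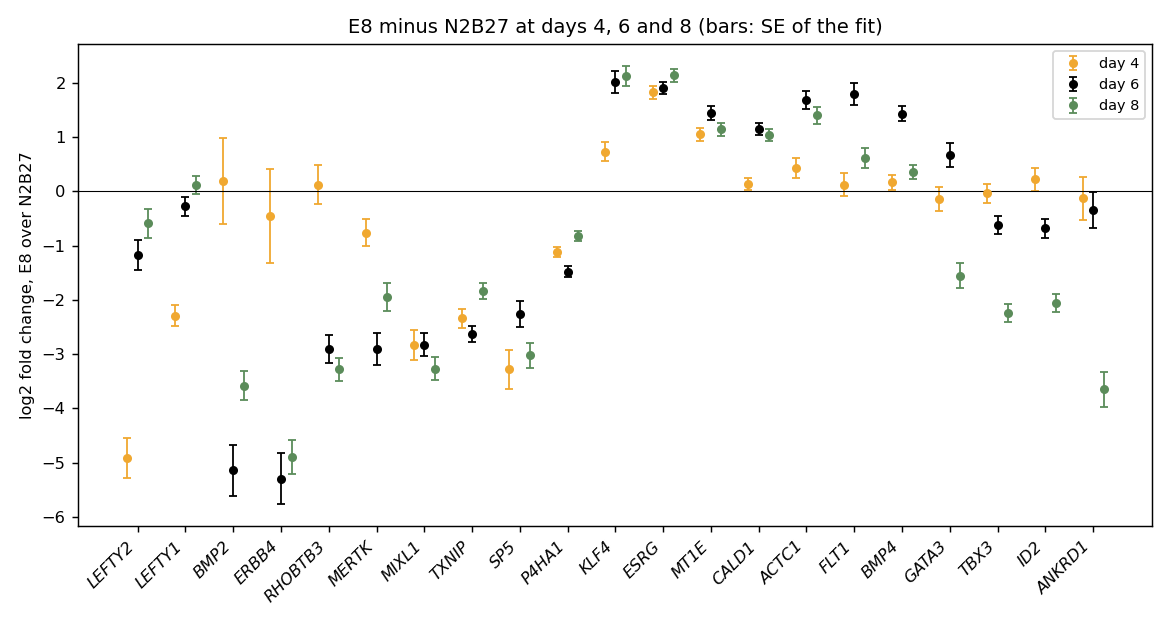
Points are log2 fold changes of E8 over N2B27 at day 4 (orange), day 6 (black) and day 8 (green) for 21 genes, and bars are the SE of the fit. LEFTY2 has its lowest value at day 4, BMP2 and ERBB4 are near 0 at day 4 and under -3 afterwards, and GATA3, TBX3, ID2 and ANKRD1 are under -1 only at day 8.

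A change between days in the difference between media was called in few genes. Each such test rests on groups of 2 libraries, so a gene not called was not shown to keep its difference. From day 4 to day 6 a change was called in 30 genes (0.18%), 14 of them upward and 16 downward. LEFTY2 showed the largest upward change, of 3.74 ± 0.51 on the log2 scale (SE, adjusted p = 2.05e-04). Its mean was 1.81 ± 0.787 CPM in E8 and 55.9 ± 4.8 in N2B27 at day 4 and 14.6 ± 0.549 and 33.2 ± 1.08 at day 6 (SD, n = 2). The E8 mean was thus higher on the later day and the N2B27 mean lower. LEFTY1 changed by 2.02 ± 0.26 (adjusted p = 1.37e-04). BMP2 showed the largest downward change, -5.34 ± 1.12 (adjusted p = 0.0219), with 0.439 ± 0.114 CPM in N2B27 at day 4 and 13.4 ± 2.43 at day 6. RHOBTB3 and MERTK changed in the same sense, by -3.04 ± 0.46 and -2.14 ± 0.40. Upward, BMP4 changed by 1.265 ± 0.19 (adjusted p = 5.89e-04), CALD1 by 1.01 ± 0.15, ACTC1 by 1.25 ± 0.24, FLT1, a receptor for VEGF, by 1.68 ± 0.29 and KLF4 by 1.28 ± 0.27. The count was 17 with the Ex1 libraries alone, and 15, 11, 10, 16 and 16 without E8 day 6 replicate 1, E8 day 6 replicate 2, E8 day 4 replicate 1, N2B27 day 4 replicate 1 and N2B27 day 4 replicate 2.

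From day 6 to day 8 a change of the difference was called in 18 genes (0.108%), 2 upward and 16 downward. BMP4 was among them, at -1.07 ± 0.18 (adjusted p = 0.00383), and was the single gene called in both steps, which share the day 6 libraries. In E8 its mean was 61.04 ± 5.99, 214 ± 2.33 and 210.5 ± 6.69 CPM at days 4, 6 and 8, and in N2B27 it was 54.3 ± 1.84, 79.4 ± 2.31 and 164 ± 10.9 (SD, n = 2). The E8 means at days 6 and 8 were alike, and the N2B27 mean was higher at day 8 than at day 6. ANKRD1 changed by -3.302 ± 0.48, GATA3, a trophectoderm and amnion factor, by -2.22 ± 0.32, TBX3, a T-box factor, by -1.62 ± 0.24, and ID2 by -1.37 ± 0.24. None of these 4 was called at day 6. The receptor LIFR, which binds LIF, changed by -1.36 ± 0.24 and was at 15.9 and 16.4 CPM in E8 and 31.5 and 35.5 in N2B27 at day 6, where its log2 fold change of -1.05 became -0.96 without N2B27 replicate 2. Without E8 day 8 replicate 2 the number of changed genes rose to 102. It was 11, 9, 8, 11 and 8 without E8 day 6 replicate 1, E8 day 6 replicate 2, N2B27 day 6 replicate 1, E8 day 8 replicate 1 and N2B27 day 8 replicate 1.

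The course of N2B27 was used to ask how genes that move with time differ between media at day 6. Between days 4 and 8 in N2B27, 963 genes rose (5.78%) and 288 fell (1.73%), in libraries that the day 6 comparison does not use. Of the 963 rising genes 133 were lower in E8 at day 6 (13.8%) and 65 higher (6.75%), and their median log2 fold change was -0.29. Of the 288 falling genes 31 were higher in E8 (10.8%) and 17 lower (5.90%), with a median of 0.21. Over all genes tested at day 6, 2.97% were called lower and 2.31% higher in E8. Both sets held calls in both directions, and each share lay above that of all genes.

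mTeSR, a commercial medium for primed cells that also supplies FGF and a TGF-β ligand, was sampled at day 6 in 2 libraries. Its comparisons share the E8 or the N2B27 libraries with the comparison above, so their values are only set side by side. mTeSR differed from E8 in 184 genes (1.10%) and from N2B27 in 437 (2.62%). The E8 count was 117 and 106 without E8 replicates 1 and 2 and 115 and 104 without mTeSR replicates 1 and 2, and the N2B27 count was 256 without N2B27 replicate 2 and 221 without mTeSR replicate 2. MIXL1 was at 64.8 and 64.4 CPM in mTeSR, a log2 fold change of 2.22 over E8 (adjusted p = 3.70e-08) and of -0.61 over N2B27, the latter not called. SP5 was at 96.4 and 108 CPM, 2.48 over E8 and 0.22 over N2B27, and LEFTY2 at 40.9 and 44.2, 1.54 and 0.36. For these 3 genes the mTeSR libraries lay nearer to N2B27 than to E8, but streak genes did not all do so. LHX1 was at 9.51 and 11.2 CPM in mTeSR, nearer to E8 on the log2 scale, and APLNR at 1.33 and 2.15 and EVX1 at 0.885 and 0.647 were nearer to E8 too, at low counts. ERBB4 was at 3.76 and 5.604 CPM in mTeSR and BMP2 at 2.65 and 3.66, between the levels of E8 and N2B27. TXNIP was at 126 and 111 CPM, 1.79 over E8 and -0.85 over N2B27, and P4HA1 at 266 and 288, 1.13 and -0.35.

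Genes higher in E8 divided in mTeSR. MT1E was at 178 and 183 CPM in mTeSR, -1.397 on the log2 scale from E8 and 0.05 from N2B27, and BMP4 was at 91.3 and 89.9, -1.24 and 0.19. KLF4 was at 29.2 and 29.7 CPM, -0.52 from E8 and 1.495 from N2B27, and INSM1 at 11.3 and 15.9, 0.02 and 2.29. MT1E and BMP4 thus had a level in mTeSR near that of N2B27, and INSM1 a level near that of E8. CYP1B1, lower in E8, was also lower in mTeSR, at 260.3 and 266 CPM (-1.15 from N2B27, adjusted p = 2.22e-08).

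**Figure D5:**
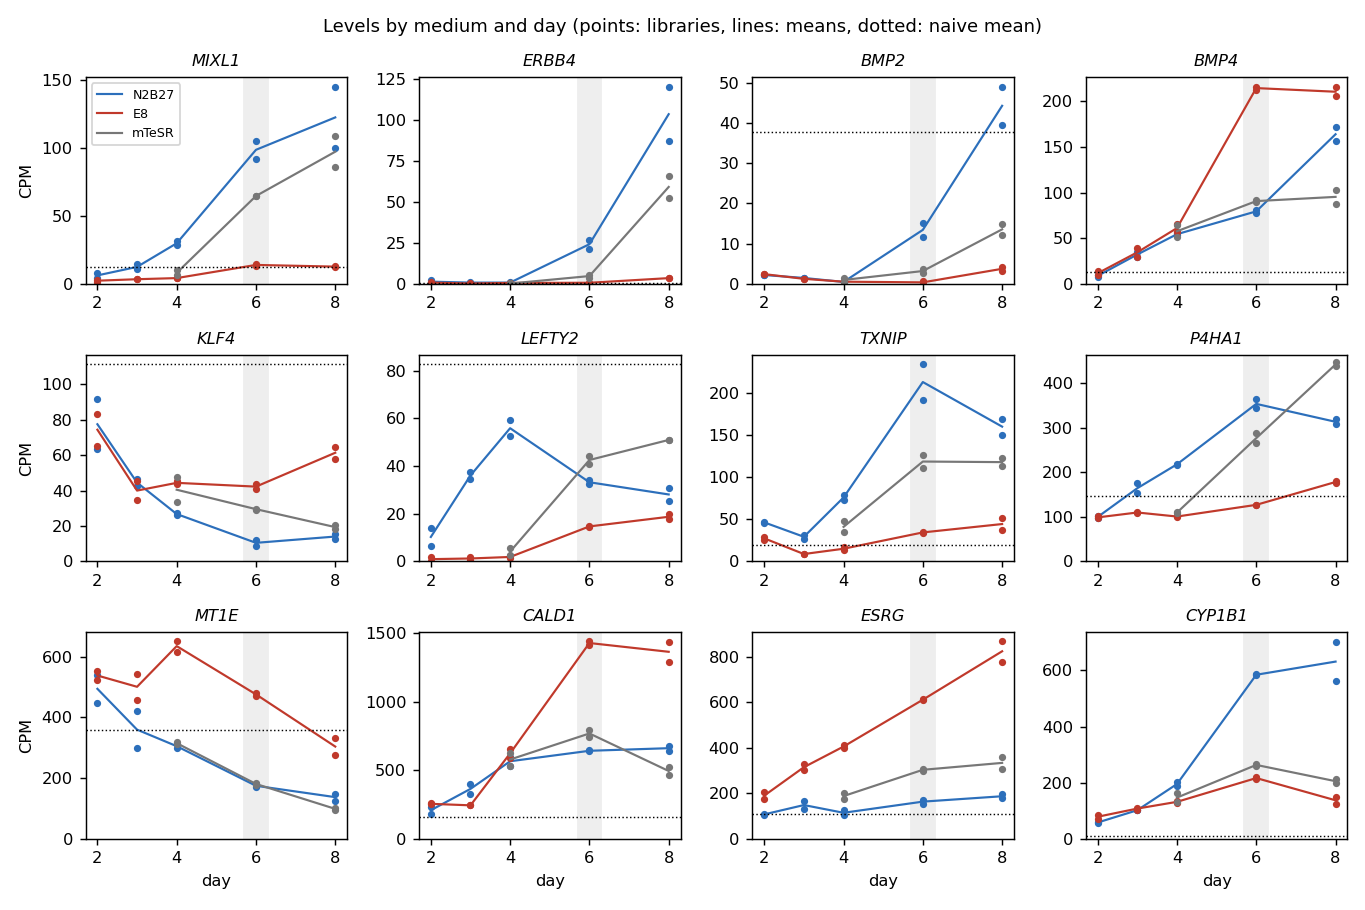
Levels in CPM of 12 genes by day in N2B27 (blue), E8 (red) and mTeSR (grey, from day 4), with points for libraries, lines for means of 2 libraries and a dotted line for the mean of the 6 naive libraries. The grey band marks day 6, where MIXL1, TXNIP, P4HA1 and CYP1B1 are lower in E8 and BMP4, KLF4, MT1E, CALD1 and ESRG higher.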

How the data were processed

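Total RNA of each library was converted with the QuantSeq 3′ kit and sequenced as single reads. The authors processed the reads with an nf-core workflow, using STAR 2.7.10a, Salmon 1.9.0 and FastQC 0.11.9 on hg38 per the labels, and deposited raw counts per gene with no normalisation, as whole numbers for 57133 genes listed by symbol, to which listed genes were matched by current or older symbol.

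Counts were tested in R 4.3.3 with edgeR 4.0.16. filterByExpr kept 16674 genes with 99.65% of all counts, TMM scaled the library sizes, and all 38 libraries entered the quasi-likelihood fit, in 19 groups of 2 that share the estimate of spread. Adjusted p-values (Benjamini-Hochberg) cover the 16674 genes of each comparison. SE were derived from the F statistic. The script was tested on simulated data. Folds against a group at or under 3 counts in every library are bounds against that floor.

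The comparison, the gene lists and the genes described were chosen with earlier results of these data known. Genes were named from the lists, from the 15 largest rises and falls among called genes with at least 10 CPM, and from the 8 largest gains and losses in CPM. Some genes that met the rule, among them clone-based names, are not described, and some results are not reported here. Gene coordinates were taken from GENCODE release 44 (hg38). Alternatives were RLE scaling, library totals, 2 other filters, DESeq2 1.42.0, fits on Ex1 libraries or on the 4 compared libraries, a block for the replicate number, 2 further fold thresholds and leaving out single libraries.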

Additional observations from a re-analysis of the deposited data

Results flagged for a closer look

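The difference between E8 and N2B27 was tested for a change between days, and the genes below were called in that test and were also called at day 6 or belong to a gene list. Values are changes of the log2 fold change of E8 over N2B27. From day 4 to day 6 the change was upward for LEFTY2 (3.74), LEFTY1 (2.02), FLT1 (1.68), OGFRL1 (1.499), FAM118B (1.28), KLF4 (1.28), BMP4 (1.265), ACTC1 (1.25) and CALD1 (1.01), and downward for BMP2 (-5.34), RHOBTB3 (-3.04), MERTK (-2.14), SFRP1 (-1.98), TFPI (-1.55) and BRDT (-1.09). BMP2 was at or near the counting floor at day 4 in both media and in E8 at day 6, so its value is not a bound.

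From day 6 to day 8 the change was downward for ANKRD1 (-3.302), DSCAM (-3.02), GATA3 (-2.22), FAM184A (-1.71), TBX3 (-1.62), HAPLN1 (-1.58), P3H2 (-1.495), ADAM19 (-1.42), ID2 (-1.37), LIFR (-1.36) and BMP4 (-1.07). None of the genes described here changed upward in this step.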

How the results depend on the processing

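Every one of the 93 called genes for which alternatives were run kept its sign in all 12 of them, 73 kept their call in all, and 81 in all that left out no library. Across 151 named genes the 1812 recomputed values held 61 calls lost, 11 gained and 7 changes of sign, the last all in genes that were not called. Without single N2B27 libraries the log2 fold change ranged over -0.80 to 0.51 for FGF8, -0.34 to 0.13 for KDR, -0.31 to 0.032 for BMP7 and -0.06 to 0.10 for SPRY2, without single E8 libraries over -3.58 to 1.80 for SNAI2 and -0.10 to 0.13 for SPRY2, and library totals gave -0.047 for SPRY2. Of 312 recomputed list medians 4 moved by more than the median SE of their genes. With no fold threshold 2647 genes passed at day 6 and 2127 passed at a log2 fold change above 0.5. Leaving out single libraries gave 523 to 683 calls without an E8 library and 631 to 719 without an N2B27 library, with the remaining library of the group assumed to vary like the other groups. The same gave 199 to 336 calls at day 4, 761 to 1398 at day 8, 10 to 24 for the change from day 4 to 6, 8 to 102 for that from day 6 to 8, 104 to 117 for mTeSR against E8, 221 to 319 for mTeSR against N2B27 and 963 to 1128 for the N2B27 course. With DESeq2 the number was 620 for day 6 (302 higher and 318 lower), 263 for day 4, 121 for mTeSR against E8 and 290 for mTeSR against N2B27. DESeq2 did not call GSC, RNF43, FOXQ1, ARRDC4, COL5A1 and SELENOP (adjusted p from 0.0559 to 0.192), and library totals put GREM1, MT1M, MYL9, ME1, SPP1 and FAM118B under the fold threshold. Without a filter the calls of RNF43, FOXQ1 and SELENOP were lost. The call of SELENOP was also lost with RLE scaling and the Ex1 libraries. Without a filter the changes between days numbered 100 and 106, with the Ex1 libraries only the earlier one numbered 17, and with RLE scaling the later one 30. Library totals moved the median of all genes at day 6 to -0.062 and gave 320 genes higher and 603 lower.

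Replicate numbers are shared by the labels of both media. The deviations of replicates with the same number did not go together (correlation 0.0066 between E8 and N2B27 over all tested genes), so the numbers were not taken as pairs. With the replicate number as a block 885 genes were called at day 6, 866 of them shared with the fit without the block, and the counts for the other comparisons were 412 at day 4, 1208 at day 8, 33 and 22 for the changes between days, 188 and 434 for mTeSR and 1245 for the N2B27 course. The block changed no call of these 151 genes. Depth limits genes under about 1 CPM, where 1 library cannot tell a low level from none.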

Other observations

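Some further genes were chosen after their values were seen and are given as values only. Among noncoding RNAs, ESRG (chr3:54632122-54639857, reverse strand) was at 609 and 613 CPM in E8 and 154 and 172 in N2B27 (log2 fold change 1.904 ± 0.11 SE, adjusted p = 2.48e-13), LINC00458 at 77.5 and 79.9 in E8 and 21.9 and 21.2 in N2B27 (log2 fold change 1.87 ± 0.16 SE, adjusted p = 4.91e-10) and LINC-ROR at 14.01 and 17.3 in E8 and 2.92 and 1.21 in N2B27 (log2 fold change 2.92 ± 0.41 SE, adjusted p = 5.27e-06, or 3.67 without N2B27 replicate 1). The protein-coding gene HHLA1 was at 10.6 and 13.4 CPM in E8 and 4.38 and 4.84 in N2B27 (log2 fold change 1.38 ± 0.29 SE, adjusted p = 0.00101), while ABHD12B was not called (0.39). In naive cells ESRG had a mean of 107 CPM, under its level at day 6 in both media.

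A few further genes called lower in E8 are given by their values. SFRP1, a secreted WNT antagonist, was at 4.11 and 2.96 CPM in E8 and 17.1 and 15.7 in N2B27 (-2.21). WNT5A, a ligand of the planar polarity branch, was at 5.31 and 6.602 CPM in E8 and 30.8 and 24.8 in N2B27 (-2.21). The aldolase ALDOC was at 18.4 and 13.9 CPM in E8 and 48.5 and 55.6 in N2B27 (-1.69), the lactate exporter SLC16A3 at 19.6 and 13.2 in E8 and 45.01 and 56.8 in N2B27 (-1.64) and the carbonic anhydrase CA12 at 5.07 and 5.92 in E8 and 16.9 and 16.5 in N2B27 (-1.597). ARRDC3, a relative of TXNIP, was at 20.04 and 25.7 CPM in E8 and 74.6 and 71.9 in N2B27 (-1.68).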
